A study of Arachis hypogaea with 15 samples.

Results

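The wild-type shoot apex and the wild-type petiole of cultivated peanut (Arachis hypogaea) were compared across all genes, library by library. The comparison uses 6 of the 15 libraries of the series, chosen by tissue and genotype alone, with 3 of the shoot apex and 3 of the petiole. Of 59878 genes in the table, 39031 reached 1 FPKM (fragments per kilobase of gene, scaled to the mapped fragments of the library) in at least 3 of the 15 libraries and were tested. Plants of both groups carried no mutation, were 40 days old and grew in soil in a chamber at 22 °C and 70% relative humidity with 16 h of light. The 9 other libraries come from the terminal leaflet and the lateral leaflet of the wild type and from the shoot apex of a mutant with an altered number of leaflets, and give levels for orientation only.

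The shoot apex holds the meristem, a group of dividing cells that class I KNOX homeodomain proteins keep undifferentiated, together with the youngest leaf primordia that form on its flanks. In most plants with compound leaves KNOX genes are used again in the leaf, whereas in pea and its relatives a LEAFY protein, named UNIFOLIATA, serves to form leaflets. The petiole is a stalk that carries vascular bundles, supporting tissue and some green tissue to the leaflets. The dissection that gave each tissue is described no further in the labels, and several tissues are mixed in each, so that fewer cells of a type and less RNA per cell cannot be told apart.

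The 6 libraries were estimated at 17.35 to 18.4 M fragments from the steps between low values. Libraries of one group correlated at 0.9876 to 0.9898 across genes and apex with petiole libraries at 0.9219 to 0.9233. Genes at 1000 fragments varied by 4.23% in the apex and 3.78% in the petiole (coefficient of variation between libraries). For genes of at least 50 fragments, the median ratio of variance to mean was 1.327 in the apex and 1.196 in the petiole. Counting error alone would give 0.693. The design text calls the libraries biological replicates. Whether they came from separate plants is not stated, so the p-values measure the spread between these libraries. All adjusted p-values are Benjamini-Hochberg values from limma over the 39031 genes, and every log2 difference is apex minus petiole on the log2(FPKM + 1) scale.

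Of the genes tested, 21333 differed between the tissues, mostly by less than 2-fold. A total of 10736 genes were higher in the apex (27.5% of genes tested) and 10597 in the petiole (27.2%), 54.7% in all, with a median difference of 0.01 over all genes. At least 2-fold differences were found for 1508 genes in the apex (3.86%) and 862 in the petiole (2.21%), together 6.07%, and the split widened with size. Differences of at least 4-fold were counted for 378 and 66 genes, of at least 8-fold for 144 and 6, and of at least 32-fold for 43 and 1. The libraries did not overlap at 59.4% of genes, with the apex higher at 30.3% and the petiole at 29.1%. Genes at 5 FPKM or more in every library of one tissue and under 0.5 FPKM in every library of the other numbered 117 for the apex and 5 for the petiole.

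**Figure D1:**
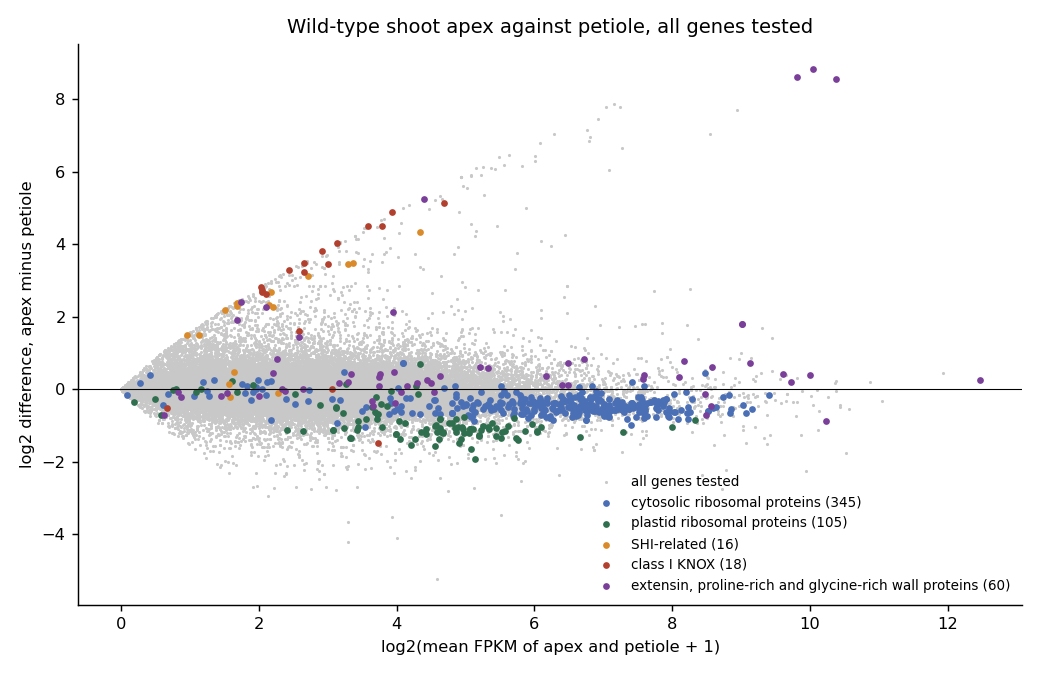
Each point is a gene; the horizontal axis is log2(mean FPKM of apex and petiole + 1) and the vertical axis the log2 difference, apex minus petiole. Points above 0 reach 8.82 and points below 0 reach -5.24, so the upper tail is the longer one.

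Among the genes with the largest apex differences were 3 named for wall or proline-rich proteins. Proline-rich extensin-like protein EPR1 (arahy.PL92CA.1, chromosome 4, 7253923 to 7259196), a hydroxyproline-rich wall glycoprotein, was at 2456.34, 2377.28 and 1496.41 FPKM in the apex and at 3.8, 3.25 and 3.6 in the petiole. Every apex library lay far above the petiole, and apex replicate 3 was the lowest of the 3. The log2 difference was 8.82 (SE 0.19, adjusted p = 2e-13). A glycine-rich cell wall structural protein gene on the same chromosome (arahy.JW8F1C.1, 7206742 to 7207965) was at 2956.88, 2844.11 and 2194.33 against 8.08, 5.3 and 4.92 FPKM, a log2 difference of 8.57 (SE 0.16, adjusted p = 3.8e-14). Proline-rich protein 36-like (arahy.QR8UZF.1, chromosome 14) had 1952.91, 1942.56 and 1455.74 against 3.81, 2.8 and 4.07 FPKM, with a log2 difference of 8.61. In all of them apex replicate 3 was below its group and still far above the petiole.

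Over the whole list of extensins, proline-rich and glycine-rich wall proteins, 33 of 60 genes tested were higher in the apex and 7 in the petiole, 11 and 0 of them by 2-fold or more, with a median difference of 0.32. Their summed level was 24126, 24082 and 19022 FPKM in the apex libraries and 12943, 12450 and 13169 in the petiole libraries. Apex replicate 3 had the lowest apex value in 28 of the 60 genes, against 12537 of all 39031. The most abundant member, extensin-3 (arahy.5H31LD.1, chromosome 9), did not follow: its 6987.82, 7228.23 and 4475.62 FPKM in the apex overlapped the 5040.33, 4860.28 and 5275.89 of the petiole (log2 difference 0.27, SE 0.14, adjusted p = 0.126). Without apex replicate 3 the difference was 0.49 and was called. In the opposite direction, the glycine-rich cell wall gene arahy.UXSD6Z.1 rose to 1549 ± 32.7 FPKM in the petiole (SD, n = 3) from 852 ± 15.6 in the apex.

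Non-specific lipid-transfer protein 2 (arahy.80U1VQ.1, chromosome 15, 153329492 to 153329830), of a family that carries lipids to the cell surface, was at 1005.22, 1012.77 and 914.85 FPKM in the apex and at 3.01, 4.31 and 3.67 in the petiole. Its log2 difference was 7.72 (SE 0.17, adjusted p = 1.15e-13). Among the lipid-transfer proteins 18 of 36 were higher in the apex and 9 in the petiole, 13 and 2 of them by 2-fold or more. The member arahy.LFL6K6.1 went the other way, with 190 ± 9.08 FPKM in the apex and 432 ± 9.01 in the petiole. Alpha carbonic anhydrase 7-like (arahy.5W5TAL.6, chromosome 13), which interconverts carbon dioxide and bicarbonate, was at 761.78, 730.89 and 723.42 against 4.57, 4.69 and 4.64 FPKM (log2 difference 7.04, SE 0.05, adjusted p = 4.44e-19).

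Several genes named for defence were also far higher in the apex. An endochitinase-like gene (arahy.62YWNW.1, chromosome 13, 279048 to 282676), whose product cleaves chitin, was at 242.32, 241.38 and 240.19 FPKM in the apex and at 0.42, 0.41 and 0.33 in the petiole. The 3 libraries of each tissue were nearly equal, and the difference of 7.45 had the smallest adjusted p of its list (7.18e-20). A beta-1,3-glucanase gene (arahy.E34YE0.1, chromosome 13, 11296428 to 11298878) was at 277.73, 272.16 and 300.9 against 0.27, 0.15 and 0.22 FPKM. Its neighbour arahy.HQY7NK.1 was at 22.4, 21.51 and 19.09 FPKM and listed at 0 in all petiole libraries. Kiwellin-like arahy.JHJ4T8.1 (260 ± 12.8 against 0.187 ± 0.125 FPKM), miraculin-like arahy.95ACYI.1 of the Kunitz inhibitor family (301 ± 6.45 against 0.373 ± 0.126) and pathogenesis-related protein 1C-like arahy.0B8THM.1 (220 ± 5.51 against 0.797 ± 0.453) had the same profile.

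Across all 174 chitinases, glucanases, thaumatin-like and other pathogenesis-related genes tested, 88 were higher in the apex and 22 in the petiole, 39 and 5 by 2-fold or more. Their summed level was 4661 to 4758 FPKM in the apex and 2432 to 2478 in the petiole, and the median difference was 0.24. Repeated entries enter these counts and sums: 8 thaumatin-like 1b entries on chromosome 12, 2-fold higher in the apex, share their values with another entry. More genes were higher in the apex than in the petiole also among abscisic acid and drought genes (33 of 69 against 5), heat shock genes (61 of 117 against 22), WRKY genes (40 of 95 against 22) and ethylene response factors (42 of 74 against 8). Over all genes tested the shares were 27.5% and 27.2%. Of 26 MLP-like genes, 8 were higher in the apex and 15 in the petiole. Jasmonate and lipoxygenase genes were divided, with 26 of 79 higher in the apex and 24 in the petiole, which changed to 25 and 27 under quantile normalization. Desiccation-related protein PCC13-62-like (arahy.RNSZ9K.1) reached 97.3 ± 8.76 FPKM in the apex and 0.107 ± 0.144 in the petiole. ABA-responsive protein ABR17 (arahy.T78K8J.1), a PR-10 type protein first described in pea, was at 215 ± 12.3 against 0.607 ± 0.62. Within the abscisic acid and drought list the most petiole-biased member was abscisic stress-ripening protein 3 (arahy.HFKS8W.1, 2.96 ± 0.235 against 9.41 ± 0.189 FPKM, log2 difference -1.40).

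The petiole-biased genes were fewer and less extreme. An uncharacterized gene on chromosome 16 (arahy.J2GYHU.1, 68488798 to 68637020) led with 46.51, 45.78 and 45.32 FPKM in the petiole and 0, 0.39 and 0.38 in the apex (log2 difference -5.24, SE 0.11). Its namesake on chromosome 6 (arahy.PBL82J.1) was at 16.57, 17.73 and 18.43 FPKM in the petiole and listed at 0 in all 3 apex libraries. Both were higher still in the leaflets, where the former averaged 406 FPKM in the terminal and 243 in the lateral leaflet. At 5 FPKM or more in every library of one tissue and 0 in every library of the other, 14 genes were listed for the apex and 2 for the petiole, the second being the uncharacterized arahy.VC4QUA.1 (8.69, 5.37 and 6.22 FPKM).

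Among named petiole genes, aldehyde oxidase GLOX1-like (arahy.GQ1BIK.1, chromosome 1, 1365216 to 1366877), a glyoxal oxidase type enzyme, was at 32.19, 28.41 and 27.25 FPKM against 0.79, 0.59 and 0.9 in the apex (log2 difference -4.11, SE 0.09, adjusted p = 3.8e-14). Salicylate carboxymethyltransferase (arahy.CFT0F0.1), which makes methyl salicylate, was at 26.87, 28.37 and 26.11 against 1.47, 1.33 and 1.6 FPKM. Aspartyl protease AED3 (arahy.JP6KD0.1), known from immune responses in Arabidopsis, was at 84.35, 85.82 and 79.2 against 6.61, 6.38 and 6.66 FPKM. These 3 were also low in the leaflets, at 0.0867 to 0.11, 1.77 to 3.85 and 0.877 to 0.99 FPKM. The leaflets did not all share this: PYRICULARIA ORYZAE RESISTANCE 21-like (arahy.RPJ1YH.1), a metal-binding protein named from rice, was at 17.2 ± 2.02 FPKM in the petiole, 0.433 ± 0.117 in the apex and 83.2 in the terminal leaflet. Phytochrome-interacting factor PIF3 (arahy.00JV9G.1), a light-signalling bHLH protein, was at 11.4 ± 0.46 FPKM in the petiole, 1.24 ± 0.0643 in the apex and 2.63 to 3.57 in the leaflets. A gene named PIF3-like on chromosome 6 (arahy.SDDU5A.1) went the other way, by 2-fold or more.

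**Figure D2:**
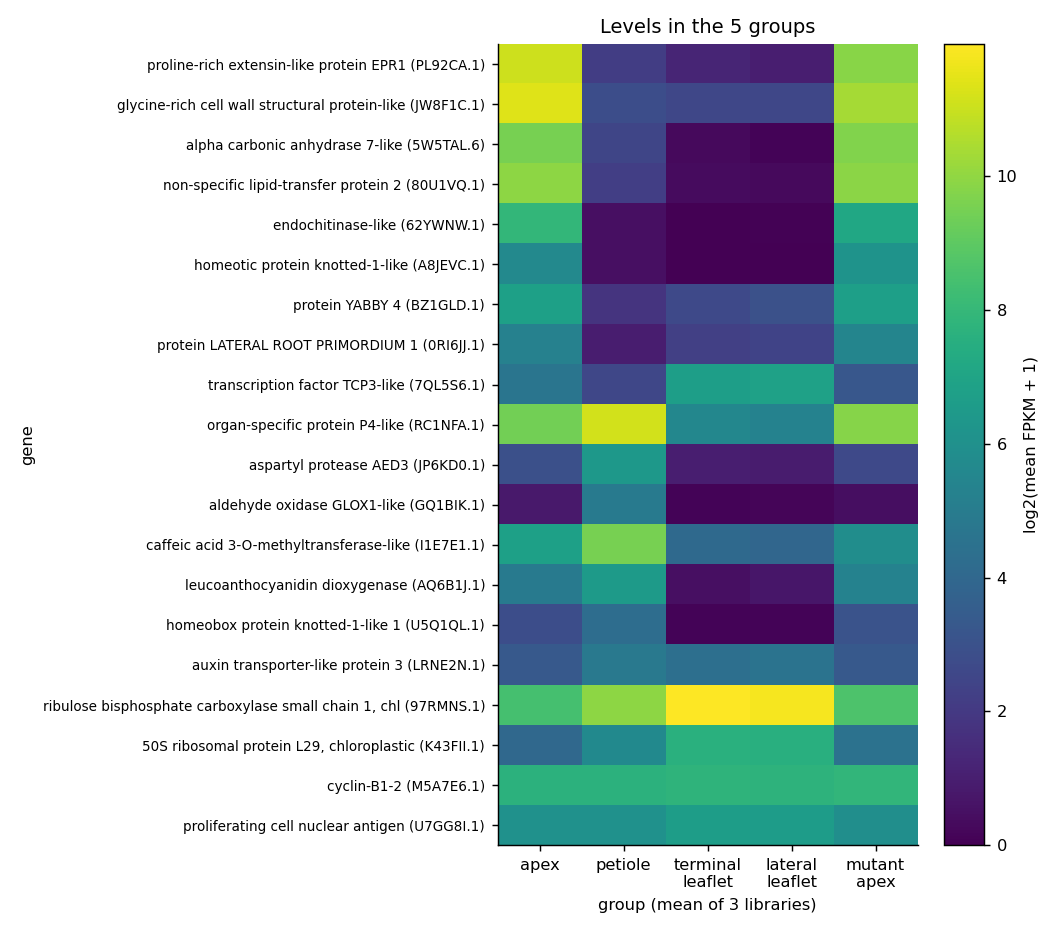
Rows are 20 genes and columns the 5 groups; the colour gives log2(mean FPKM + 1) over 3 libraries. The wall and defence genes of the apex are dark in the petiole and both leaflets and bright in both apices, whereas GLOX1-like and AED3 are brightest in the petiole and TCP3-like is brightest in the leaflets.

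Class I KNOX genes, the defining markers of the apex, were higher there in 15 of 18 genes tested, each by 2-fold or more, and 1 was higher in the petiole. The summed level of the list was 247.39, 235.04 and 247.91 FPKM in the apex and 31, 30.6 and 28.83 in the petiole. The gene with the highest level, a homeotic protein knotted-1-like gene (arahy.A8JEVC.1, chromosome 16, 150935770 to 150946553), was at 48.62, 46.94 and 51.43 against 0.49, 0.39 and 0.38 FPKM (log2 difference 5.14, SE 0.06, adjusted p = 1.45e-17). Its counterpart of the same name on chromosome 6 (arahy.0VJ2KM.1) was at 25.4 ± 1.05 against 0.167 ± 0.116 FPKM. Both LET6 genes, named after a tomato KNOX gene, were listed at 0 in every petiole library: arahy.EUX0L6.1 (chromosome 7, 5926202 to 5931136) was at 28.54, 28.75 and 28.44 FPKM in the apex and arahy.D6DE6U.1 (chromosome 17, 7714884 to 7720007) at 23.88, 20.37 and 21.68. Both SBH1-like genes, named after a soybean homeobox gene, were at 0 in the petiole as well, with 15.6 ± 1.38 FPKM (arahy.EP4LC1.1) and 13 ± 0.415 (arahy.VD5ZG0.1) in the apex.

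The exceptions were 3 genes of one name, knotted-1-like 1, after Arabidopsis KNAT1, which acts in stem and pedicel growth. In arahy.U5Q1QL.1 (chromosome 9, 25202366 to 25211803) the order was inverted, with 5.7, 5.62 and 6.81 FPKM in the apex and 19.29, 19.01 and 17.05 in the petiole. The groups did not overlap, and the log2 difference was -1.47 (SE 0.10, adjusted p = 1.13e-08). Its namesake arahy.S28ZE3.1 (chromosome 15, 139436660 to 139441976) was at 6.39, 8.39 and 7.35 against 6.96, 8.04 and 6.99 FPKM, which overlapped fully (difference 0.00, SE 0.11, adjusted p = 0.981). The third, arahy.ZTJV1A.1, was at most at 1.59 FPKM in any of the 6 libraries and not called, though it was called higher in the petiole without petiole replicate 2 (difference -0.93). In the leaflets the first averaged 0.09 and 0.0967 FPKM and the next 0.0533 and 0.157, so petiole levels of class I KNOX transcripts came mostly from these genes and from arahy.00W5AZ.1 (1.94 ± 0.233 FPKM against 7.97 ± 0.404 in the apex).

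The LEAFY and UNUSUAL FLORAL ORGANS genes, which in pea and other legumes act in compound leaf formation, were low in the apex and close to 0 in the petiole. All 6 were higher in the apex, by 2-fold or more. UNIFOLIATA-like arahy.31D2RV.1 (chromosome 3, 117031167 to 117032832) was at 4.77, 4.96 and 6.83 FPKM against 0.07, 0.07 and 0, with a log2 difference of 2.63 (SE 0.10, adjusted p = 2.48e-11). The other UNIFOLIATA genes averaged 2.47 to 3.47 FPKM in the apex and 0 to 0.01 in the petiole. UNUSUAL FLORAL ORGANS, an F-box protein that works with LEAFY, was at 2.07, 1.9 and 2.04 FPKM (arahy.GTY4NG.1) and at 2.23, 1.64 and 2.91 (arahy.N7CMLX.1) in the apex, and both were at 0 in all petiole libraries.

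Organ boundary genes separate a primordium from the meristem and leaflets from each other. Of 25 tested, 18 were higher in the apex, 14 by 2-fold or more, and 0 in the petiole, with a median of 1.12. CUP-SHAPED COTYLEDON 2-like, a NAC transcription factor, was at 7.86, 7.26 and 7.78 FPKM in the apex and 0.22, 0.35 and 0.29 in the petiole (arahy.XB6K25.1), and at 7.69, 7.31 and 7.2 against 0.13, 0 and 0.12 (arahy.B9XEKF.1). LIGHT-DEPENDENT SHORT HYPOCOTYLS genes of the ALOG family did not behave alike. The LSH4 gene arahy.TK9752.1 (chromosome 12) was at 53.8 ± 2.45 against 5.99 ± 0.398 FPKM, while arahy.3YCL0F.2 of the same family was at 17.38, 17.82 and 18.13 against 16.11, 16.41 and 16.41 (adjusted p = 0.125). LATERAL ORGAN BOUNDARIES arahy.4BCY92.1 was at 7.62 ± 1.18 against 0.18 ± 0.09 FPKM, but arahy.ANI736.1 of that name was at 4 ± 0.575 against 3.56 ± 0.488 and not called.

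YABBY proteins promote blade growth on the lower side of lateral organs. Of 13 tested, 8 were higher in the apex and 2 in the petiole. Protein YABBY 4 arahy.BZ1GLD.1 (chromosome 11, 53319148 to 53323272) was at 108.82, 109.11 and 119.82 FPKM against 2.33, 2.38 and 2.88, a log2 difference of 5.01 (SE 0.09, adjusted p = 3.19e-15), and averaged 5.16 and 6.91 in the leaflets. Axial regulator YABBY 1 arahy.GE3GK9.1 (chromosome 12) was at 42.62, 40.92 and 42.17 against 0.46, 0.37 and 0.27 FPKM, and averaged 22.3 and 20.8 in the leaflets. Of 4 YABBY 2 genes, arahy.20NM7L.1 was higher in the apex (5.73 ± 1.48 against 2.89 ± 0.829 FPKM, adjusted p = 0.00283) and 3 were not called. Among the latter, arahy.W7IKXG.1 (29 ± 1.63 against 26.4 ± 1.29 FPKM, adjusted p = 0.0646) and arahy.R7E7C4.2 (20.6 ± 0.573 against 19.5 ± 0.928, adjusted p = 0.212) had similar means in both tissues. Of these, arahy.W7IKXG.1 was called under 3 of the alternatives, with differences of 0.16 to 0.19. Genes annotated as axial regulator YABBY 4 were low and higher in the petiole (arahy.H309J3.1, 0.197 ± 0.0416 against 1.43 ± 0.145 FPKM).

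**Figure D3:**
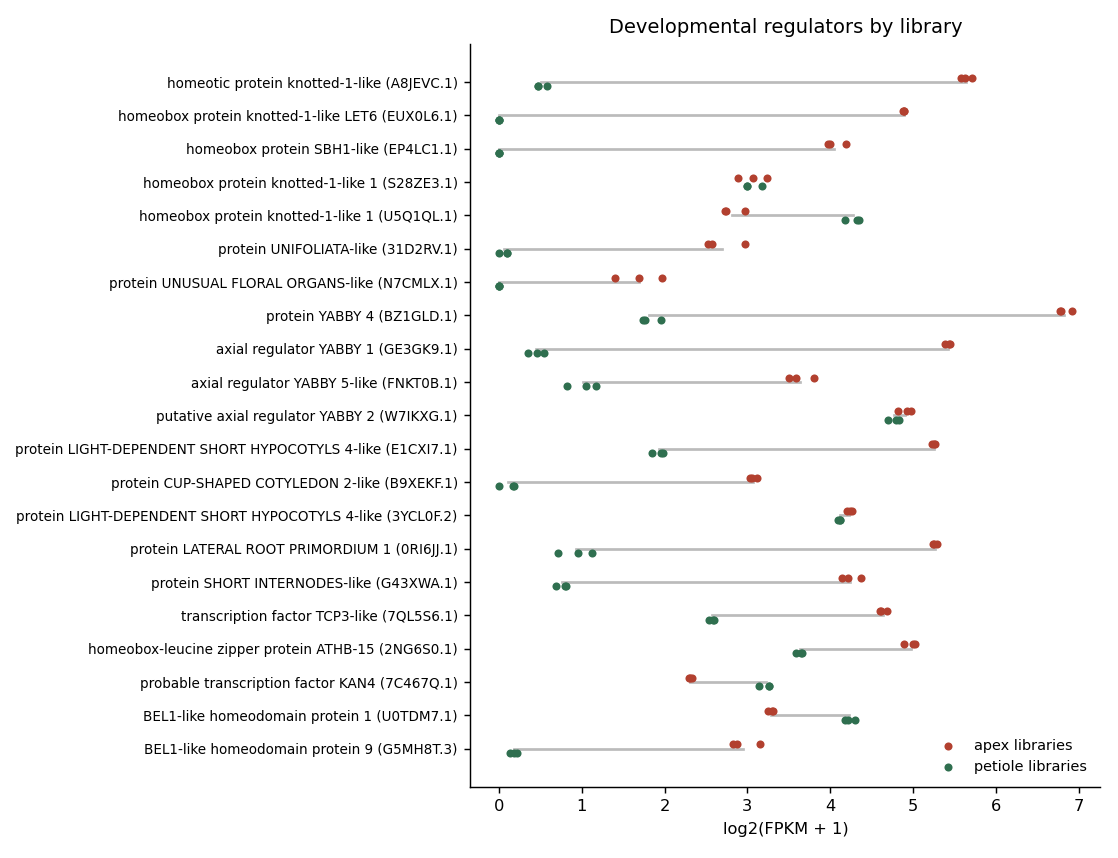
Points are single libraries of the apex and the petiole and the horizontal axis is log2(FPKM + 1); a grey line joins the group means of a gene. Many regulators lie near 0 in the petiole, and others, such as TCP3-like and ATHB-15, are lower there than in the apex but above 0. Knotted-1-like 1 U5Q1QL.1, KAN4 and BEL1-like 1 are higher in the petiole, and S28ZE3.1, W7IKXG.1 and 3YCL0F.2 overlap or nearly overlap.

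SHI-related proteins, zinc-finger activators of auxin synthesis genes, were almost all on the apex side. Of 22 genes with such a name 16 were tested, 13 were higher in the apex, 12 by 2-fold or more, and 0 in the petiole, with a median of 2.29 and a summed level of 127.31 to 137.75 against 12.94 to 15.74 FPKM. LATERAL ROOT PRIMORDIUM 1 arahy.0RI6JJ.1 (chromosome 7, 3750572 to 3753259) was at 36.79, 37.25 and 38.21 against 0.94, 1.17 and 0.64 FPKM (log2 difference 4.33, SE 0.08, adjusted p = 1.1e-14). SHORT INTERNODES-like arahy.G43XWA.1 was at 17.9 ± 1.53 against 0.7 ± 0.0781, and arahy.94Z1HY.1 was an exception with 2.12 ± 0.273 against 1.81 ± 0.24 FPKM and no call.

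Growth-regulating factors (GRF) and their GIF partners, which sustain cell proliferation in young leaves, were higher in the apex in 26 of 30 and in the petiole in 2. Growth-regulating factor 9 (arahy.FF6C67.1) was at 14.4 ± 0.666 against 2.67 ± 0.163 FPKM. CIN-type TCP genes, which restrain proliferation at the leaf margin, were higher in the apex than in the petiole in 7 of 8. TCP3-like arahy.7QL5S6.1 was at 23.33, 24.82 and 23.43 against 4.97, 4.78 and 5.04 FPKM (log2 difference 2.07, SE 0.05, adjusted p = 6.17e-14), while the leaflets averaged 104 and 116, so the apex held the middle place for this gene.

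Homeodomain leucine zipper genes were higher in the apex in 55 of 80 and in the petiole in 14, 21 and 1 by 2-fold or more. ATHB-12-like arahy.RF7AVT.2, of a class tied to water deficit, was at 25.9, 23.56 and 27.38 against 0.41, 0.51 and 0.46 FPKM. PROTODERMAL FACTOR 2-like arahy.Q0AVLX.1, an epidermal regulator, was at 11.3 ± 0.707 against 1.14 ± 0.186. Of the genes that specify the upper side of the leaf, ATHB-15 arahy.2NG6S0.1 was at 30.4 ± 1.57 against 11.4 ± 0.299 FPKM and REVOLUTA arahy.D5R23C.1 at 20.9 ± 1.24 against 9.97 ± 0.276. KAN4 (arahy.7C467Q.1), of the family that specifies the lower side, was higher in the petiole, at 8.33 ± 0.425 against 3.96 ± 0.0611 (log2 difference -0.91, SE 0.09, adjusted p = 4.58e-07). ATHB-15, REVOLUTA and KAN4 were picked after values were seen, so they do not stand for the sides of the leaf. Over the whole leaf polarity list, YABBY genes included, 19 of 43 were higher in the apex and 7 in the petiole, with a median of 0.14. ATHB-13-like arahy.ZBAY9J.1 was the 1 zipper gene at least 2-fold higher in the petiole, with 22.5 ± 0.983 against 9.41 ± 0.605 FPKM.

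BELL proteins pair with KNOX proteins, and here 17 of 26 were higher in the apex and 6 in the petiole. The 6 petiole genes all carry the name BEL1-like homeodomain protein 1, and 2 of them have identical entries. One of them, arahy.U0TDM7.1 (chromosome 10), was at 8.5, 8.92 and 8.8 FPKM in the apex and 18.62, 17.05 and 17.56 in the petiole. BEL1-like 9 (arahy.G5MH8T.3) was at 6.3, 6.06 and 7.87 against 0.13, 0.1 and 0.16, and BEL1-like 4 (arahy.DWSH38.1) at 10.4 ± 0.457 against 1.57 ± 0.21 FPKM.

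The stem cell list of WUSCHEL-related and CLAVATA genes was less marked, with 11 of 25 higher in the apex, 0 in the petiole and a median of 0.27. Of this list 44% was called, against 54.7% of all genes tested. By direction, 27.5% of all genes tested were higher in the apex and 27.2% in the petiole. At 2-fold or more the shares over all genes tested were 3.86% and 2.21%. WUSCHEL-related homeobox 1-like (arahy.2E2A40.1), a gene of blade outgrowth in other legumes, was at 2.68 ± 0.179 against 0.47 ± 0.09 FPKM. Over all 2043 transcription factors that the authors' annotation places in families, 937 were higher in the apex and 359 in the petiole, 233 and 41 by 2-fold or more. Among the flowering genes the apex was higher for the MADS-box gene SOC1 (arahy.H2N64Y.1, 4.28 ± 0.0351 against 0.88 ± 0.185 FPKM) and for a FLOWERING LOCUS T-like gene (arahy.EM6VH3.1, 13.2 ± 0.792 against 6.34 ± 0.674), but not for the MADS-box gene JOINTLESS (arahy.UK37ES.1, 7.68 ± 0.248 against 7.07 ± 0.624, adjusted p = 0.233).

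Auxin transport genes divided between the tissues. They were higher in the apex in 6 of 25 and in the petiole in 10. Calls in either direction took 64% of them, against 54.7% of all genes tested. Probable auxin efflux carrier component 1b arahy.E6QCJN.2 (chromosome 20, 138608137 to 138611475) was at 13.98, 13.5 and 14.71 FPKM in the apex and 1.7, 1.72 and 1.4 in the petiole (log2 difference 2.53, SE 0.07, adjusted p = 1.11e-12). Efflux carrier component 4 went the other way in both copies, with 16.8 ± 0.692 against 39 ± 0.665 FPKM for arahy.2QV4RS.1 and 29.8 ± 1.7 against 53.9 ± 1.72 for arahy.FCRD5F.1. The influx carriers split as well: auxin transporter-like 5 (arahy.RGXR1X.1) was at 29.85, 29.11 and 31.38 against 13.11, 13.72 and 11.72 FPKM, whereas auxin transporter-like 3 (arahy.LRNE2N.1) was at 9.52, 9.58 and 8.49 against 28.15, 29.25 and 26.93.

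Of the auxin response genes, auxin response factor 5 (arahy.N1Z0FN.2, chromosome 16, 767716 to 775091), required for organ initiation and vascular strands in Arabidopsis, was at 16.1, 15.61 and 15.66 against 2.35, 2.14 and 2.26 FPKM (log2 difference 2.37, SE 0.05, adjusted p = 6.3e-14). The repressor gene IAA14 (arahy.QUY0YV.1) was higher in the petiole at 49.8 ± 0.778 against 23.1 ± 0.871. GH3 enzymes conjugate auxin to amino acids, and 11 of 17 were higher in the apex and 5 in the petiole. GH3.6-like arahy.LM0T65.1 was at 5.44 ± 0.103 against 0.0867 ± 0.0379 FPKM and GH3.10-like arahy.TK0SGS.1 at 1.52 ± 0.164 against 9.35 ± 0.368. SAUR genes, short auxin-induced transcripts tied to cell expansion, were higher in the petiole in 25 of 62 and in the apex in 4, with a median of -0.49. Auxin-induced protein X15-like arahy.N8H2W4.1 was at 1.73 ± 0.233 against 6.39 ± 0.28 FPKM.

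**Figure D4:**
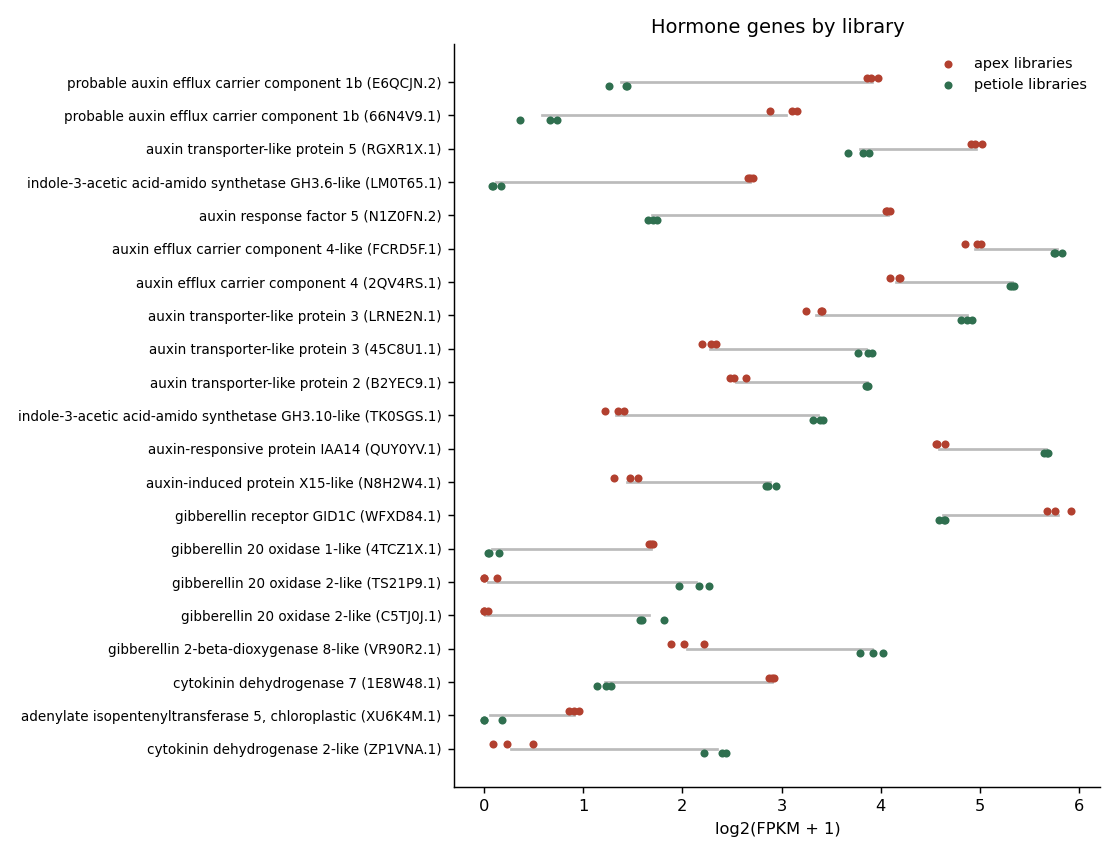
Points are single libraries and the horizontal axis is log2(FPKM + 1), as in the plot of developmental regulators. Efflux carrier 1b, transporter-like 5 and GH3.6-like are higher in the apex, and efflux carrier 4, transporter-like 2 and 3 and GH3.10-like are higher in the petiole, with no overlap between tissues.

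Gibberellin and cytokinin genes were called in both directions, as were all genes tested (27.5% higher in the apex and 27.2% in the petiole). Among 54 gibberellin genes 28 were higher in the apex and 14 in the petiole. Gibberellin 20-oxidases make the precursors of active gibberellin, and 2 genes named 20 oxidase 2-like were close to absent from the apex, with 0.0333 ± 0.0577 against 3.41 ± 0.463 FPKM (arahy.TS21P9.1) and 0.01 ± 0.0173 against 2.17 ± 0.312 (arahy.C5TJ0J.1). The gene named 20 oxidase 1-like (arahy.4TCZ1X.1) had 2.21 ± 0.04 FPKM in the apex and 0.06 ± 0.0436 in the petiole. Gibberellin 2-beta-dioxygenase 8-like genes, whose products inactivate the hormone, were higher in the petiole (arahy.VR90R2.1, 3.14 ± 0.485 against 14.1 ± 1.19), and the receptor gene GID1C was higher in the apex (arahy.WFXD84.1, 54.2 ± 4.72 against 23.6 ± 0.584). A DELLA repressor gene, GAI1-like arahy.R8ZZ7K.1, was at 6.01 ± 0.456 against 1.13 ± 0.222 FPKM.

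The cytokinin list was drawn by product name and also holds two-component response regulator-like PRR37 (arahy.A77B5H.1), of a circadian clock family. Its counts are thus not of cytokinin genes alone. Genes of this list were higher in the apex in 32 of 78 and in the petiole in 26, a balance that changed to 29 and 30 under quantile normalization. Calls in either direction took 74.4% of them, against 54.7% of all genes tested. Cytokinin dehydrogenases, which degrade the hormone, were split by name: cytokinin dehydrogenase 7 was higher in the apex (arahy.1E8W48.1, 6.47 ± 0.135 against 1.33 ± 0.121 FPKM) and cytokinin dehydrogenase 2-like in the petiole, where arahy.ZP1VNA.1 had 4.13 ± 0.42 against 0.22 ± 0.173. The synthesis gene adenylate isopentenyltransferase 5 (arahy.XU6K4M.1) was low, at 0.88, 0.82 and 0.94 FPKM in the apex and 0, 0.14 and 0 in the petiole.

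Genes of cell division were called in both directions, like genes as a whole. Calls took 52% of kinesin, 48% of DNA replication, 68.9% of histone and 80.8% of cyclin genes, against 54.7% of all genes tested. Kinesin genes were higher in the apex in 20 of 125 and in the petiole in 45, and cyclin genes in 28 and 35 of 78. The summed kinesin level was nonetheless higher in the apex, at 1317 to 1351 against 1144 to 1152 FPKM. Its most abundant member was KIN-13A arahy.D324NA.2 (359 ± 19.1 against 99.95 ± 3.83 FPKM). DNA replication genes were higher in the apex in 24 of 98 and in the petiole in 23, and 0 differed by 2-fold. Proliferating cell nuclear antigen arahy.U7GG8I.1, the sliding clamp of DNA polymerase, was at 66.74, 64.91 and 65.51 FPKM in the apex and 64.67, 65.15 and 65.5 in the petiole (difference 0.01, SE 0.03, adjusted p = 0.768). Cyclin-B1-2 arahy.M5A7E6.1 was at 203.09, 215.36 and 198.28 against 197.52, 197.31 and 218.57 (difference 0.01, SE 0.05, adjusted p = 0.906). Both genes became called higher in the apex under quantile normalization, with differences of 0.14 and 0.21. Single cyclins did differ, such as cyclin-D4-1-like arahy.051FW7.1 (14.2 ± 0.114 against 6.19 ± 0.236 FPKM) and cyclin-D5-3-like arahy.J88HVL.1 (0.9 ± 0.13 against 3.88 ± 0.0971). Histone genes were higher in the petiole in 20 of 45 and in the apex in 11, which changed to 10 and 14 under quantile normalization.

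Most genes of the cytosolic ribosome, mitochondrial complex I and the proteasome were higher in the petiole. Cytosolic ribosomal protein genes were higher there in 295 of 345 and in the apex in 8, with a median of -0.45 and only 1 by 2-fold or more. Their summed level was 32595 to 32802 FPKM in the apex and 44656 to 45250 in the petiole. One of them, 40S ribosomal protein S5-like arahy.B8V3X4.1, was at 133.39, 143.12 and 144.48 against 240.01, 244.76 and 248.42, while 60S L10 arahy.UI1KLV.1 was higher in the apex (409 ± 8.45 against 299 ± 3.37). Mitochondrial complex I genes were higher in the petiole in 46 of 60 and in the apex in 0, with a median of -0.42. Proteasome genes were higher there in 27 of 38 and in the apex in 2, with a median of -0.26.

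Plastid ribosomal protein genes, listed by product name, showed a larger shift. Of 105, 88 were higher in the petiole, 62 of them by 2-fold or more, and 1 in the apex, with a median of -1.05. The apex gene, 30S S12-B arahy.4PHN98.1, had overlapping libraries (limma, adjusted p = 0.0402). The chloroplast 50S L29 genes were at 14.36, 12.85 and 14.33 FPKM in the apex and 52.28, 59.87 and 52.11 in the petiole (arahy.Q6429D.1), and at 15.43, 15.24 and 15.46 against 50.46, 47.58 and 52.89 (arahy.K43FII.1). For the former the leaflets averaged 191 and 185 FPKM, so the petiole held the middle place. Photosystem and light-harvesting genes were higher in the petiole in 79 of 92, but by 2-fold in only 11, with a median of -0.58. Photosystem II 22 kDa protein arahy.L9FPHH.2, which dissipates excess light energy, was at 60.7 ± 1.13 against 174 ± 4.89 FPKM, and a Rubisco small chain gene arahy.XT6T0B.1, of the enzyme that fixes carbon dioxide, at 364 ± 4.35 against 926 ± 4.52. The leaflet means of these genes were 621 to 628 and 2711 to 3141 FPKM.

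Genes of vascular and wall tissue, the markers of the petiole, gave a mixed picture. Over all genes tested, 27.2% were higher in the petiole and 27.5% in the apex. Laccases, which polymerise lignin, were higher in the petiole in 16 of 23 and in the apex in 1, with a median of -0.63. Laccase-17-like arahy.CEFU99.1 was at 4.03, 4.68 and 5.56 against 8.93, 10.51 and 9.69 FPKM. The exception, laccase-7-like arahy.SN8JE3.1, was at 2.69, 2.78 and 2.59 in the apex and 0 in the petiole, and another gene of that name had the opposite order (arahy.G9FESD.1, 0.0133 ± 0.0231 against 1.4 ± 0.126). Secondary wall and vessel genes were higher in the petiole in 17 of 36 and in the apex in 5, but in 2 and 3 when at least 5 FPKM was required. COBRA-like protein 4 (arahy.Y3R0BI.1), which acts in cellulose deposition, was at 1.51 ± 0.118 against 4.73 ± 0.353 FPKM. Fasciclin-like arabinogalactan genes were higher in the petiole in 15 of 25 and in the apex in 3.

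Lignin monomer enzymes were higher in the petiole in 29 of 78 and in the apex in 20. Among all genes tested, 27.2% were higher in the petiole and 27.5% in the apex. Caffeic acid 3-O-methyltransferase, which methylates lignin precursors, was at 111.5, 105.81 and 110.02 FPKM in the apex and 733.32, 725.96 and 755.68 in the petiole (arahy.I1E7E1.1, chromosome 10, 91153378 to 91160946; log2 difference -2.75, SE 0.04, adjusted p = 1.43e-16). Its namesake arahy.S7NHY3.1 on chromosome 20 was at 112 ± 6.06 against 576 ± 22.3. Other enzymes of this pathway were higher in the apex: caffeoyl-CoA O-methyltransferase 5 arahy.DMW9PU.1 was at 69.09, 65.99 and 64.97 against 2.18, 2.09 and 2.47 FPKM, and cinnamoyl-CoA reductase 1 arahy.I8IQWM.1 at 480 ± 14.6 against 181 ± 1.02. Flavonoid genes were higher in the petiole in 41 of 92 and in the apex in 32, among them leucoanthocyanidin dioxygenase of the anthocyanin route (arahy.AQ6B1J.1, 28.7 ± 1.13 against 90 ± 3.31).

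Phloem genes were higher in the petiole in 22 of 45 and in the apex in 12, and the most abundant were on the apex side. The shares over all genes tested were 27.2% and 27.5%. SIEVE ELEMENT OCCLUSION B-like proteins plug wounded sieve tubes, and arahy.89XXPU.1 (chromosome 9, 96079438 to 96084845) was at 111.54, 111.38 and 111.01 FPKM in the apex and 23.82, 23.34 and 23.67 in the petiole (log2 difference 2.19, SE 0.04, adjusted p = 1.94e-14). On the same chromosome, arahy.4D3FVT.1 of the same name was at 0.68, 0.51 and 0.56 against 7.41, 6.34 and 6.81. The sucrose transporter gene SUC1 (arahy.7US8C9.1) was higher in the petiole at 14.8 ± 0.352 against 3.83 ± 0.274 FPKM.

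Epidermal genes were mixed too, with 36 of 87 cuticular wax and cutin genes higher in the apex and 22 in the petiole. Together 66.7% of these were called, against 54.7% of all genes tested. WAX2 (arahy.GXK42C.1), which acts in wax synthesis, was at 30.71, 30.56 and 31.57 against 0.28, 0.36 and 0.32 FPKM. The stomatal lineage list, drawn by product name, had 10 of 30 higher in the apex and 13 in the petiole, with a median of -0.27. Calls took 76.7% of it. EPIDERMAL PATTERNING FACTOR-like protein 1 (arahy.131LTR.1), listed by its name alone, was higher in the apex at 14.8 ± 1.22 against 1.62 ± 0.26. FAMA (arahy.H4P5M1.1), which drives guard cell fate, was higher in the petiole at 2.38 ± 0.485 against 0.813 ± 0.104. FAMA averaged 10.2 and 10.9 FPKM in the leaflets.

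Some petiole genes lay side by side. All 8 organ-specific protein genes tested, of a family first named in pea, were higher in the petiole, 7 by 2-fold or more, and their summed level was 1523 to 1557 FPKM in the apex and 4697 to 4803 in the petiole. Organ-specific protein P4-like arahy.RC1NFA.1 (chromosome 13, 7108764 to 7109903) was at 667.51, 662.21 and 696.79 against 2254.41, 2304.78 and 2266.69 FPKM, and was among the 5 highest genes of the petiole. On chromosome 3, 3 adjacent members between 4656473 and 4691954 were each higher in the petiole by 2-fold or more, led by arahy.JI131A.1 (154 ± 3.48 against 723 ± 5.64 FPKM). Runs of at least 3 adjacent tested genes at 2-fold or more in one direction numbered 13 for the petiole and 11 for the apex. Among them were 4 sulfotransferase genes on chromosome 11 (1371565 to 1393988) and 3 dirigent protein 22-like genes on chromosome 16 (6420421 to 6468103), all on the petiole side. Some runs hold only entries whose values equal those of another gene, so the counts of runs are inflated. These are all 4 apex runs of at least 4 genes, and petiole runs of 6 genes on chromosome 16 and 3 genes on chromosome 14. Near-identical tandem copies can exchange reads, so the levels of single members in such runs are uncertain.

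**Figure D5:**
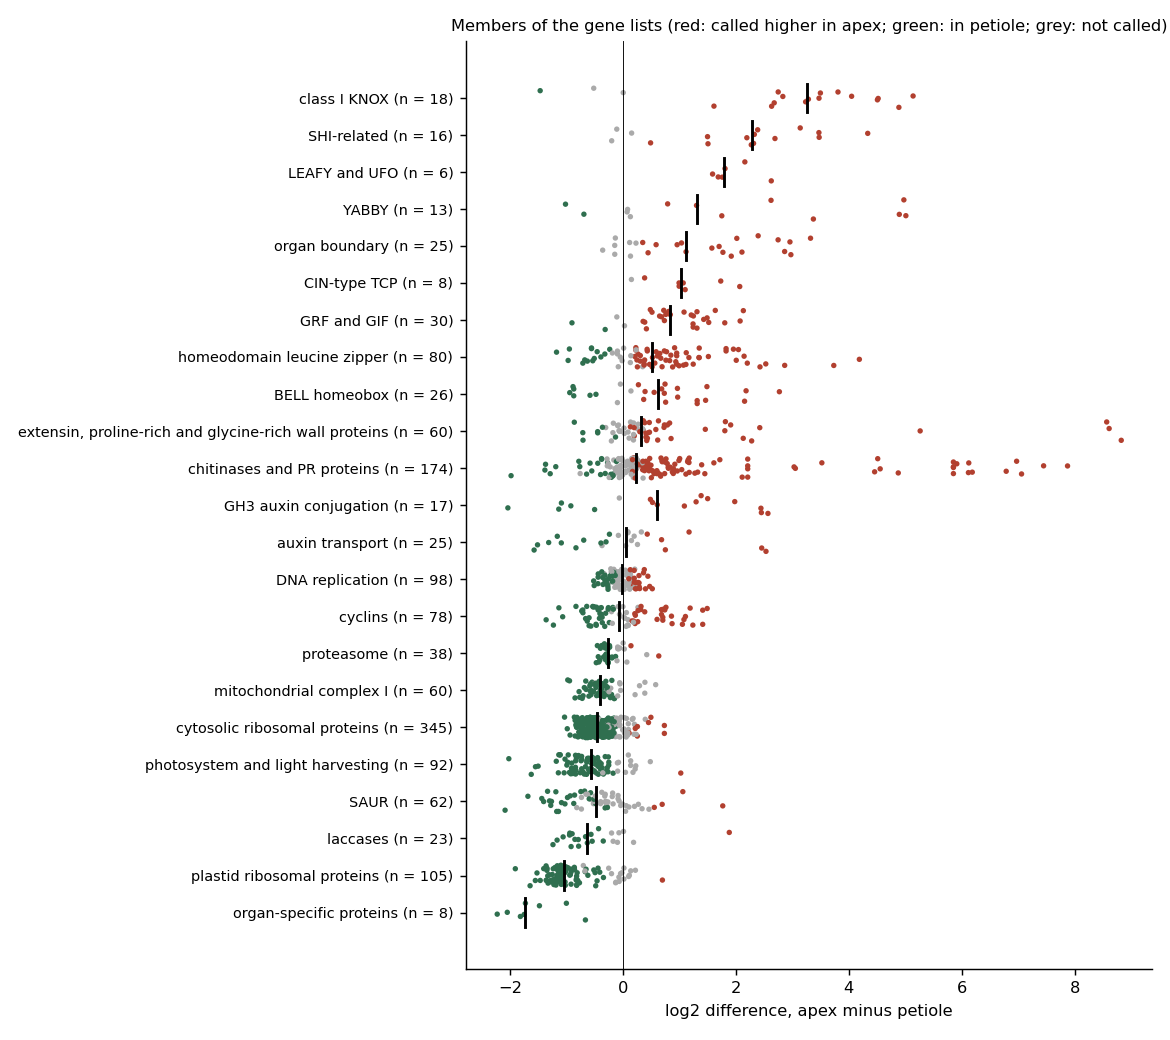
Points are the tested members of 23 gene lists, the horizontal axis is the log2 difference, apex minus petiole, and black bars are medians. Class I KNOX (median 3.26) and SHI-related genes (2.29) lie farthest to the apex side, organ-specific (-1.74) and plastid ribosomal protein genes (-1.05) farthest to the petiole side, and DNA replication genes straddle 0.

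Markers of seed, root, nodule and pollen were also counted. Among all genes tested, 27.5% were higher in the apex and 27.2% in the petiole. Of 24 seed storage and oil body genes 4 were tested, all higher in the apex, with summed levels of 32.58 to 36.8 against 8.42 to 9.57 FPKM and legumin type B (arahy.8YA0Q1.1) at 4.77 ± 0.468 against 1.51 ± 0.0586. Of 45 root and nodule genes 20 were tested, 8 higher in the apex and 6 in the petiole, with sums of 671.65 to 722.71 against 746.6 to 771.32. A large part of these sums was glutamine synthetase nodule isozyme (arahy.HA9E1Y.1), at 278 ± 13.8 against 356 ± 4.56 FPKM. It also averaged 71.9 and 75.5 in the leaflets, so the sums do not stand for root or nodule tissue. The list includes early nodulin-75 (arahy.JCK56G.1), a proline-rich wall protein, at 72.3 ± 2.13 in the apex and 0.213 ± 0.12 in the petiole. Pollen and anther genes were higher in the petiole in 9 of 15 tested and in the apex in 3, by less than 2-fold in every case. The part of such tissues in the results was not tested.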

How the data were processed

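Per the file headers, the authors deposited FPKM values for 59878 genes with peanut Tifrunner identifiers, coordinates of the first Tifrunner assembly and product names (blank for 868). Each library's column is present 2 times and was read once. Per the labels' protocols, random primers were used to make cDNA from total RNA, and no strand-specific step is described. TAIR10, the name of an Arabidopsis genome, stands in the submitters' processing notes, and the software behind the FPKM is not given in the sources. Per the file headers, their deposited file also holds log2 ratios with p-values and q-values between groups, which were used only for the counts credited to them. Depth is an estimate from the steps between low FPKM values.

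The design allowed for counts; since the file holds FPKM, limma 3.58.1 (R 4.3.3, data.table version 1.17.8, statmod 1.5.0) was fitted to log2(FPKM + 1) with 1 mean per group over all 15 libraries (trend and robust empirical Bayes), after a filter of 1 FPKM in 3 or more libraries. A gene was called at an adjusted p under 0.05, and counted as 2-fold at a log2 difference of 1 or more besides. This scale understates the change of low genes. The fit was tested on simulated data. Python 3.11.15, pandas 2.3.3, numpy 2.4.6 and matplotlib 3.10.9 were used for summaries and plots.

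Gene lists are patterns on product names and are described by counts and medians with no test of the list. The members and lists were chosen with earlier results of these data known, and several lists were added or trimmed, and some of the named genes picked, after values were seen. The other genes named follow a rule: the 15 largest differences in each direction among called, named, non-overlapping genes at 5 FPKM or more, the member of smallest p in each direction and of highest level in each list, and the 5 most abundant genes of each tissue. Alternatives were another pseudocount, other filters, quantile and TPM scaling, only the 6 libraries, a replicate block, plain empirical Bayes, and each library left out. No sequence is printed.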

Additional observations from a re-analysis of the deposited data

How the results depend on the processing

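The counts of genes higher in the apex and in the petiole, and of those at least 2-fold higher, stayed within 1.5 times the reported value under every alternative but one. With a pseudocount of 0.1 FPKM the 2-fold counts were 2473 for the apex and 1663 for the petiole, against 1508 and 862. Leaving out 1 library at a time gave 9936 to 10075 genes higher in the apex and 9784 to 9968 in the petiole, and 1494 to 1545 and 854 to 899 at 2-fold. TPM rescaling shifted the median of all genes to 0.06 and gave 12272 and 9333 calls; quantile normalization shifted it to -0.04 and gave 9835 and 11732. Among single genes, the direction of the histone H2B.1 gene arahy.2MB6KR.1 (-0.20) reversed under quantile normalization (0.006), and that of the lipoxygenase gene arahy.NDAY03.1 (-0.06) under quantile normalization (0.0314) and TPM rescaling (0.0034); the cause was not tested. Same-numbered apex and petiole libraries did not deviate together (correlations -0.0285, -0.0026 and -0.0233), and differently numbered ones gave -0.033 to 0.0583. The labels do not state whether the samples were taken in pairs, and these values cannot decide it. With the replicate number as a block, fitted on the 6 libraries, 9645 and 9557 genes were called, 1506 and 862 of them at 2-fold. The balance of calls within a list changed sides for histones, DNA replication, secondary wall, expansin, cytokinin, jasmonate, and root and nodule genes under at least 1 alternative. Depth limits low genes: values near 0 FPKM rest on few fragments, and genes listed at 0 may be present below detection.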

Other observations

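Peanut carries an A and a B subgenome, on chromosomes 1 to 10 and 11 to 20, and both showed the contrast to the same extent. Of 17872 tested genes of the A subgenome 27.5% were higher in the apex and 27.6% in the petiole, and of 20917 of the B subgenome 27.4% and 27.0%. Among 7295 pairs that share a product name on chromosomes n and n + 10 with 1 gene each, 1631 were higher in the apex in both members, 1748 in the petiole in both, and 98 in opposite directions. No pair was 2-fold in opposite directions, while 324 were 2-fold in the same one. Copies can exchange reads in short-read counting, which draws their values together; its part here was not tested. In 9 pairs 1 member was 2-fold higher in one tissue and its copy called the other way. Transcriptional corepressor LEUNIG was one, with 7.03 against 17.5 FPKM for arahy.S31KRA.1 and 5.62 against 2.97 for arahy.AR1CII.1 (apex first). Lectin CPL was another, with 18.7 against 0.46 FPKM for arahy.349KCY.1 and 894 against 1344 for arahy.R1XS8N.1.

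Genes with the names of organelle genomes ran against most of the plastid ribosomal protein genes. Of 117 chloroplast genome products tested 43 were higher in the apex and 3 in the petiole, with a median of 0.32, and of 35 mitochondrial genome products 17 and 1. Petiole replicate 3 stood apart here, with a chloroplast genome sum of 1657 FPKM against 1257 and 1268 in the other petiole libraries and 1688 to 1772 in the apex. For 30S ribosomal protein S12-B (arahy.4PHN98.1) petiole replicate 3 was at 24.06 and the others at 10.62 and 10.47 FPKM. Of 242 tested genes on scaffolds 40.5% were higher in the apex and 6.2% in the petiole.

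Some counts rest on repeated entries. Of the genes tested, 1963 have the same values as another gene in all columns compared; with each set counted once, 10401 of 38039 genes were higher in the apex and 10288 in the petiole. The longest run of adjacent 2-fold genes, 8 thaumatin-like 1b genes on chromosome 12 (119764452 to 119769762), consists of such entries. The authors' deposited table calls 32548 genes at a q under 0.05, 17041 higher in the apex and 15507 in the petiole. Of 21287 genes called there and here, 21283 had the same direction.

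A few strongly apex-biased genes also differed between wild-type and mutant apices, given as levels with no test. The 18 kDa seed maturation protein gene arahy.BAUA8N.1 was at 9.13, 10.29 and 9.53 FPKM in the wild-type apex, listed at 0 in the petiole and at 0.0133 on average in the mutant apex. ATHB-12-like arahy.RF7AVT.2 averaged 25.6 FPKM in the wild-type apex, 0.46 in the petiole and 2.12 in the mutant apex. Early nodulin-75 (arahy.JCK56G.1) averaged 72.3, 0.213 and 11 FPKM.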
